A study of Mus musculus with 48 samples.

Results

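The genes described here are 8 transcripts whose proteins are tied to amyloid, tau, synuclein and brain lipid carriage: App, Aplp1, Bace1, Psen2, Mapt, Sncb, Apoe and Clu. They form a list of named genes, chosen with earlier results of these data known, and all 8 were found among the 15782 genes of the tables. RNA was measured in mouse brain sections by digital spatial profiling (DSP), in which barcoded probes are released by light from a chosen area of illumination (AOI) and counted by sequencing. A single probe stands for each of the 8 genes, so transcript isoforms were not told apart.

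All mice were male C57BL/6 animals, 10 weeks old at the start of a 35-day mission, and every group held 3 mice. FLT-SAL mice flew and received saline. FLT-BuOE mice flew and received BuOE, a metalloporphyrin antioxidant, at 1 mg/kg in 0.2 mL under the skin, 7 days before launch and then weekly. GC-SAL and GC-BuOE mice stayed on the ground in cages of flight hardware with the matching injections, on a schedule delayed by 3 days. The interval from splashdown to the laboratory was at most 20 h. In each of the 12 mice 1 AOI was taken from each of 4 regions, which makes 48 AOIs: the cornu ammonis (CA) and the dentate gyrus (DG) of the hippocampus, the frontal cortex (FCT) and the cortex (CT). The 3 sections of a group shared a slide, so slide and group cannot be told apart. No label pairs the mice that carry the same number in different groups.

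The amyloid precursor protein, encoded by App, is a membrane protein of neurons that is cut by the β-secretase Bace1 and then by γ-secretase, whose catalytic subunit is a presenilin, to release amyloid-β. Tau, encoded by Mapt, binds axonal microtubules, and the synucleins are small presynaptic proteins, of which Sncb encodes β-synuclein. Apolipoprotein E (Apoe) and clusterin (Clu, also called apolipoprotein J) are secreted mainly by astrocytes and carry lipid between brain cells, and both can bind amyloid-β.

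In GRCm38 coordinates App lies on the minus strand at chr16:84949685-85173766 and its relative Aplp1 on the minus strand at chr7:30434982-30445535. Bace1 is on the plus strand at chr9:45838580-45864399, and Psen2 is on the minus strand at chr1:180227004-180263438. Mapt occupies chr11:104231390-104332090 on the plus strand and Sncb chr13:54758860-54766595 on the minus strand. Apoe is on the minus strand at chr7:19696109-19699188 and Clu is on the plus strand at chr14:65968483-65981547.

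A window of 150 bases upstream of the gene start in RefSeq is printed for 4 members: the 3 with the clearest differences between regions or groups that had a RefSeq promoter entry, and Aplp1 as the relative of App. They are from RefSeq, GRCm38.p6, read 5′ to 3′ on the gene's strand, and 5 of the 8 members had an entry. The windows are chr16:85173767-85173916 for App, chr7:30445583-30445732 for Aplp1, chr13:54766596-54766745 for Sncb and chr7:19699189-19699338 for Apoe. The App window was moved to end at the GENCODE start, and 47 bases lie between the GENCODE start of Aplp1 and its window, since the annotations place that start differently. Capitals mark a GC box (GGGCGG, or CCGCCC on the other strand).
App: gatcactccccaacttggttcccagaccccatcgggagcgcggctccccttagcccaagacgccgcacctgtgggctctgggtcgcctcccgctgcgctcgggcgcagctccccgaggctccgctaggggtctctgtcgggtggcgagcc
Aplp1: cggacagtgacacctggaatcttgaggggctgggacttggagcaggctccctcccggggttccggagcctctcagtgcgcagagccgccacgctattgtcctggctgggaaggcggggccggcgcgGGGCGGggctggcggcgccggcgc
Sncb: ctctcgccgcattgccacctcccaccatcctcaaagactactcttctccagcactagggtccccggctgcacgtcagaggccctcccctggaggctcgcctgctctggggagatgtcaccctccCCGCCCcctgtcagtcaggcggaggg
Apoe: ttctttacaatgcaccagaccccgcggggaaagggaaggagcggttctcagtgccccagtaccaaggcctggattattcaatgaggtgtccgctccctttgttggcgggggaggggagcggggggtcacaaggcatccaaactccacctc
The windows of Aplp1 and Sncb each held 1 GC box and those of App and Apoe held 0, against 28.6% of 32851 promoter windows of the same length with at least 1. The GC content was 71.3% for App, 73.3% for Aplp1, 66.7% for Sncb and 59.3% for Apoe. The TATA box TATAAA, found on either strand in 7.57% of the same windows, was in 0 of these 4. The same held for the letters CCAAT, found in 24.5%, and for the E box CACGTG, found in 4.3%. Such matches describe letters only and are not binding sites.

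After removal of duplicate reads, the AOIs held 322629 to 1579380 counts (median 652040). FLT-SAL AOIs were the deepest, with a median of 991426 counts, while GC-SAL had 628307.5, FLT-BuOE 548888 and GC-BuOE 639735, and they held a median of 579.5 nuclei against 452, 426.5 and 468. The CT AOI of GC-SAL mouse 1 held 140 nuclei, where the other CT AOIs held 416 to 598, and it enters the CT values and mouse means below. Values below are Q3-normalized counts, counts scaled by the authors so that the upper quartile was 40.02 in every AOI. The regions matched their labels: Prox1, a granule cell factor, had a median of 111 in DG and 26.9 to 35 elsewhere, and Fibcd1, a CA1 pyramidal cell gene, had 97 in CA and 21.8 to 31.1 elsewhere. Lamp5, an upper-layer cortical gene, had medians of 67.8 in CT and 49.5 in FCT against 36.9 in CA and 25.1 in DG.

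The members differed widely in how far they stood above the negative-control probes. In the same AOI App stood 16.6 to 59.6 times above them (median 32.9) and Aplp1 9.47 to 37.5 times (median 21.2). Medians were 10.6 for Apoe, 10.3 for Sncb, 9.45 for Clu and 7.18 for Mapt, and no AOI fell below 1.5 times for any of these 6 genes. Both proteolytic genes were near background. Bace1 had a median of 2.68 times the negative-control value with 2 of 48 AOIs below 1.5, and Psen2 a median of 1.68 with 16 of 48 below 1.5. Ratios of this kind depend on each probe, so levels are not compared between genes.

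App, Mapt and Sncb each differed between regions by more than the spread between mice. App, the amyloid precursor, had its lowest level in DG, with a lowest, median and highest Q3-normalized count over 12 mice of 241, 316 and 418. In CA the same values were 347, 464 and 616, in FCT 458, 583 and 772, and in CT 421, 683 and 808. Every FCT and CT value of App was above every DG value, while CA overlapped with all 3 other regions. In limma, on log2(Q3-normalized count + 1) over the 48 AOIs with the mouse as a random block, App was lower in DG than in CT by a log2 difference of -1.08 (SE 0.07, adjusted p = 5.41e-26) and than in FCT by -0.90 (SE 0.07, adjusted p = 9.57e-21). It was higher in CA than in DG by 0.59 (SE 0.07, adjusted p = 1.31e-11), and each of these differences had the same direction in 12 of 12 mice. Calls here required an adjusted p below 0.05 and a difference of more than 1.5-fold, the thresholds of the study. The CA to DG difference of App sat on that fold threshold and fell to 0.542 under TMM scaling and to 0.584 with a pseudocount of 5, so that call was lost under both. It was also lost when FLT-BuOE mouse 1 or 3, FLT-SAL mouse 1, GC-BuOE mouse 2 or GC-SAL mouse 3 was left out (0.554 to 0.584).

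Sncb, the presynaptic β-synuclein, separated hippocampus from cortex. Its lowest, median and highest values were 57, 90.7 and 114 in CA and 71.8, 105 and 149 in DG. In cortex they were 131, 183 and 231 (FCT) and 140, 205 and 231 (CT). Both hippocampal regions were below both cortical regions in 12 of 12 mice, and across mice DG overlapped with FCT and CT only through its highest AOI. The log2 difference was -1.15 between CA and CT (SE 0.07, adjusted p = 1.12e-25), -1.02 between CA and FCT (SE 0.07, adjusted p = 5.43e-22), -0.93 between DG and CT (SE 0.07, adjusted p = 4.8e-20) and -0.80 between DG and FCT (SE 0.07, adjusted p = 3.46e-16), all in limma. CA was below DG by 0.22 on the log2 scale, with an adjusted p of 0.0227, in 9 of 12 mice.

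Mapt, which encodes tau, was lowest in CA, intermediate in DG and highest in cortex. Its lowest, median and highest values were 50.8, 64.5 and 83.1 in CA and 64.5, 89.2 and 103 in DG. In FCT they were 100, 113 and 142, and in CT 86.9, 110 and 124. CA did not overlap with either cortical region, and DG overlapped with both. Mapt was lower in CA than in FCT by a log2 difference of -0.81 (SE 0.08, adjusted p = 2.73e-15) and than in CT by -0.73 (SE 0.08, adjusted p = 2.84e-13). Differences under the fold threshold with adjusted p below 0.05 placed DG above CA by 0.38 in 11 of 12 mice and below FCT and CT by 0.43 and 0.35 in 12 of 12 mice.

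**Figure D1:**
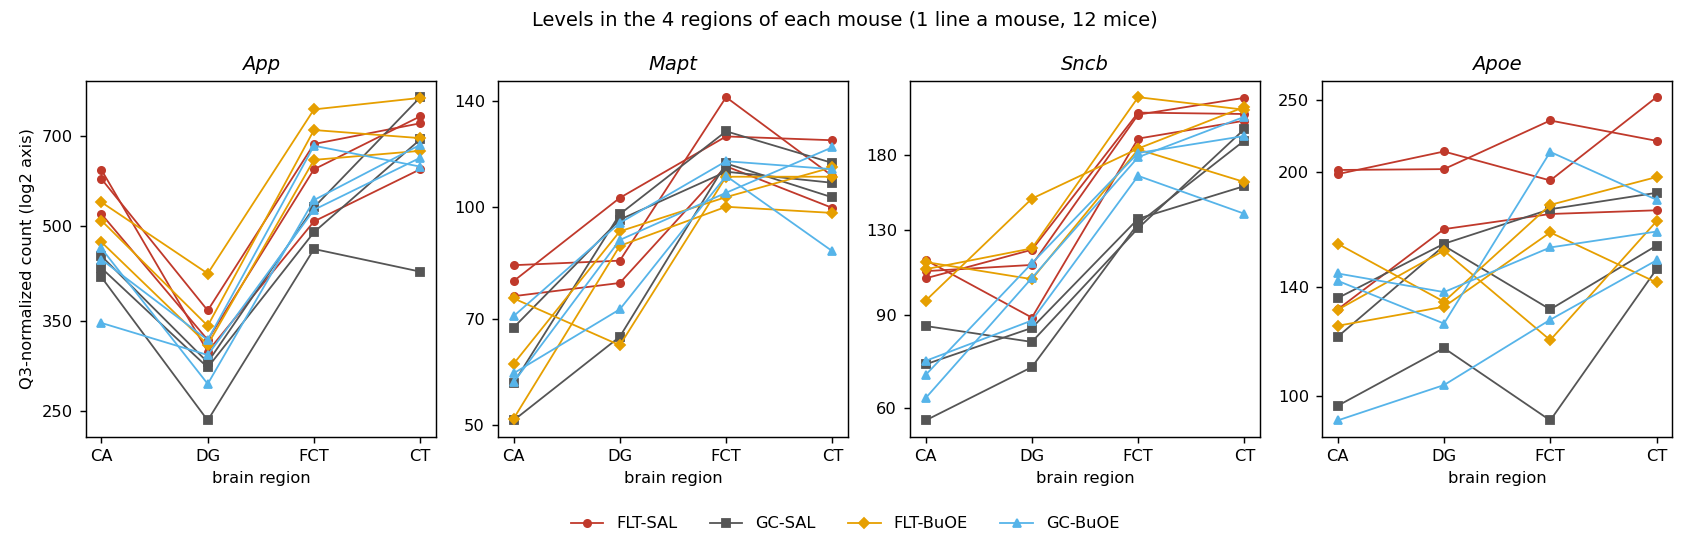
Q3-normalized counts (log2 axis, scaled for each gene) of App, Mapt, Sncb and Apoe in CA, DG, FCT and CT, with 1 line for each of the 12 mice and color and marker for its group. App dips in DG in all 12 mice (median 316 against 464 in CA), and Sncb climbs from medians of 90.7 and 105 in CA and DG to 183 and 205 in FCT and CT.

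The 5 remaining members varied less. The lipid carriers had medians, in the order CA, DG, FCT and CT, of 133, 147, 171 and 175 for Apoe and of 124, 120, 153 and 146 for Clu. Apoe was below its CT level in CA by 0.38 (adjusted p = 0.000384) and in DG by 0.27 (adjusted p = 0.0158), in 12 of 12 mice each. Clu was below FCT in DG by 0.31 (adjusted p = 0.000836) in 11 of 12 mice. Aplp1, an amyloid precursor-like protein of neurons, had medians of 274, 292, 329 and 314 in the same order, and CA was below FCT by 0.32 (adjusted p = 0.00118) in 11 of 12 mice. Neither enzyme gene had a difference between regions with an adjusted p below 0.05. Bace1 had medians of 37.9 to 41.6 and no pair of regions differed by more than 0.06 on the log2 scale, with 95% confidence intervals reaching from -0.25 to 0.23 over the 6 pairs. Psen2 had medians of 21.3 to 27.9, and its intervals were wider, reaching from -0.45 to 0.49.

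Over the 8 genes and 6 pairs of regions, 9 of 48 differences were called and 23 had an adjusted p below 0.05 at any fold. Of 32 comparisons of a hippocampal with a cortical region, 27 were lower in the hippocampus, 20 of them with an adjusted p below 0.05, and 0 were higher with an adjusted p below 0.05. At any p, 59.5% of all genes were higher in CA than in FCT and 61.7% higher in CA than in CT. The shares higher in DG were 46.9% against FCT and 49.6% against CT. Calls numbered 1 of 8 between CA and DG (4.1% of all genes), 2 between CA and FCT (3.28%), 2 between CA and CT (3.98%), 2 between DG and FCT (4.54%) and 2 between DG and CT (5.79%). At any fold the members with an adjusted p below 0.05 numbered 3 between CA and DG (23.6% of all genes), 5 between CA and FCT (17.6%), 6 between CA and CT (20.7%), 4 between DG and FCT (17.7%) and 5 between DG and CT (21%). Between FCT and CT 0 members and 0.101% of all genes were called (0 and 0.786% at any fold), and 1 member, App, had an unadjusted p below 0.05 in limma (8.22% of all genes), lower in FCT by 0.18 (95% confidence interval of the difference -0.32 to -0.04, adjusted p = 0.336). The order of Sncb, Mapt and App within the cortex was thus not resolved beyond the spread between mice.

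The comparison of FLT-SAL with GC-SAL asks what flight did without the drug. Within regions no member passed the test, but nearly all estimates were on the flight side: of 32 gene and region values 30 were above 0, from -0.14 to 0.63 on the log2 scale. The lowest adjusted p was 0.0728, for Sncb in FCT. Of all genes 53.5% (CA), 48.7% (DG), 55.8% (FCT) and 51.3% (CT) were above 0. The 32 values come from regions of the same mice and are not independent, and the genes were chosen with earlier results known. Counts of members beside shares of all genes, here and below, are therefore descriptions and not tests. In limma 0 of 8 members were called in any region, where the share of all genes called was 0.139% for CA, 0.266% for DG, 0.0507% for FCT and 0.0887% for CT. At an unadjusted p below 0.05 there were 5 members in each hippocampal region and 2 in each cortical region, all higher in FLT-SAL, while the share of all genes higher at that level was 4.63% (CA), 4.43% (DG), 3.69% (FCT) and 2.87% (CT). edgeR called 0 and DESeq2 called 1, Sncb in FCT (adjusted p = 0.016), a region where it called 0.0951% of all genes. In these measurements of whole areas fewer cells of a type and less RNA per cell cannot be told apart.

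**Figure D2:**
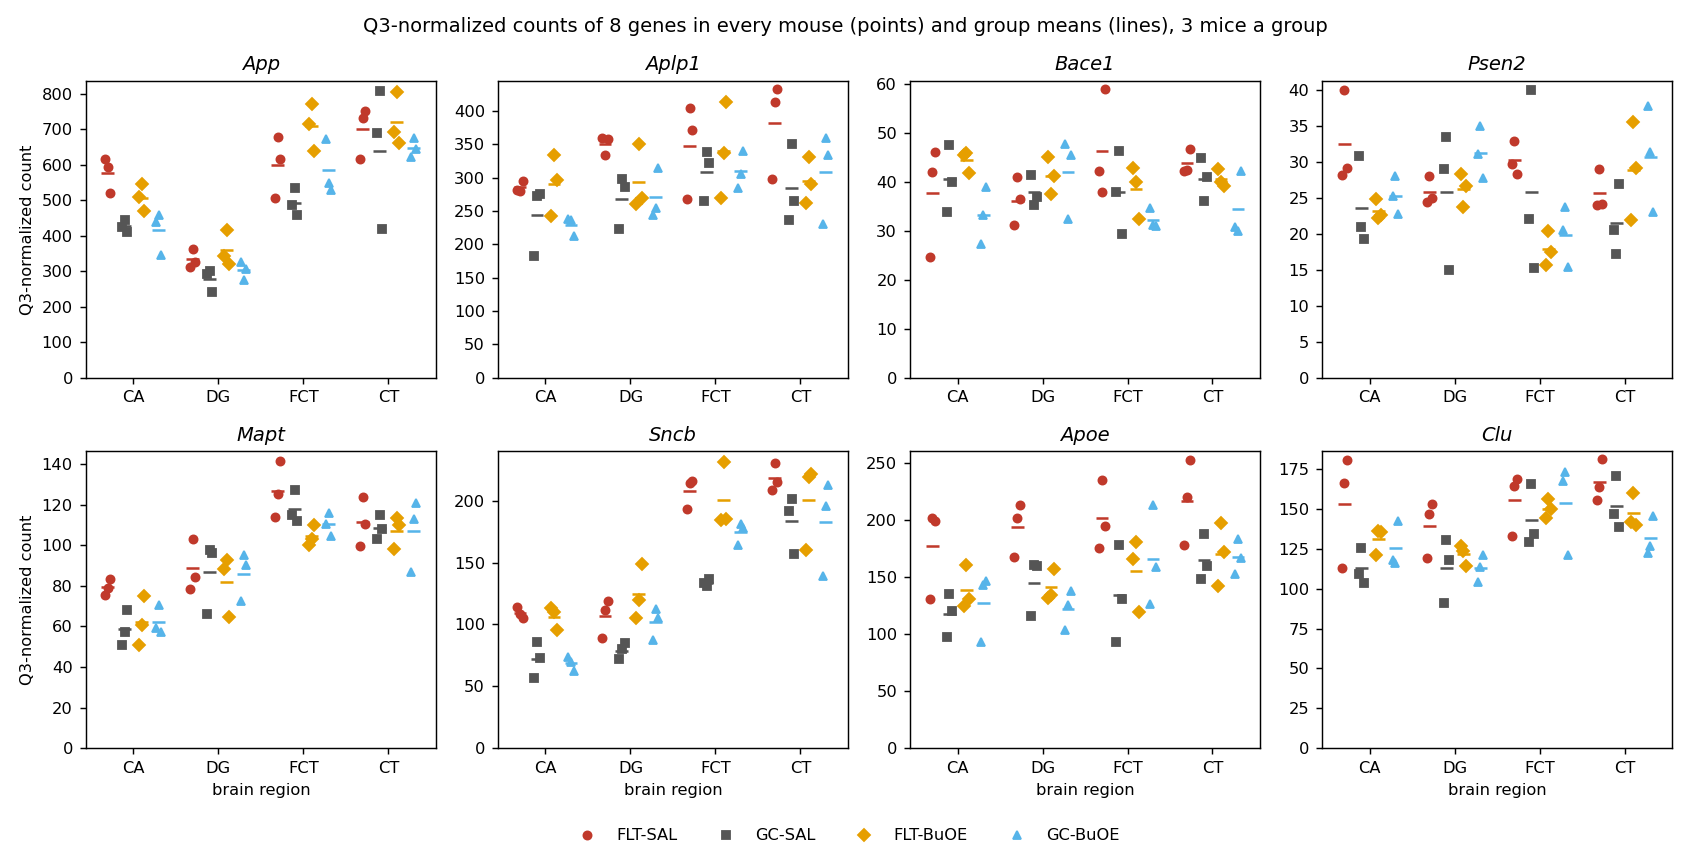
Q3-normalized counts of the 8 genes in CA, DG, FCT and CT, with a point for each mouse and a line for the mean of the 3 mice of each group, drawn from 0. Sncb in FCT is at 193 to 216 in FLT-SAL and 131 to 137 in GC-SAL, while Bace1 and Psen2 stay below 60 with overlapping groups in most panels.

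Sncb stood apart most clearly. In FCT its values were 193, 214 and 216 in FLT-SAL and 134, 131 and 137 in GC-SAL, a log2 difference of 0.63 (SE 0.14). In CA they were 114, 109 and 105 against 57, 85.8 and 72.6, a difference of 0.62 (SE 0.17, adjusted p = 0.132). In DG they were 88.9, 112 and 119 against 71.8, 80 and 85 (0.42, adjusted p = 0.346), and in CT 209, 231 and 215 against 192, 201 and 157 (0.26, adjusted p = 0.999). The 3 FLT-SAL mice were above the 3 GC-SAL mice in all 4 regions. As ratios to the negative-control probes this held in CA, DG and FCT. In CT these ratios were 12.4, 14.7 and 16.1 against 13.2, 14.8 and 9.81, which overlap. Without FLT-BuOE mouse 1 or 3, which enter through the shared spread, the FCT difference passed both thresholds (adjusted p = 0.0389 and 0.0396), and without GC-SAL mouse 2 the CA difference did (0.76, adjusted p = 0.0471).

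Apoe, the main lipid carrier of the brain, was higher in FLT-SAL on average in every region, with more overlap between mice. In FCT the values were 176, 234 and 195 in FLT-SAL and 92.7, 178 and 131 in GC-SAL (0.63, SE 0.18, adjusted p = 0.369). In CA they were 131, 201 and 199 against 97, 135 and 120 (0.57, SE 0.17, adjusted p = 0.203). In both regions 1 FLT-SAL mouse, mouse 1, fell below the highest GC-SAL mouse. In DG the values of 168, 202 and 213 were all above the GC-SAL values of 116, 160 and 159 (0.43, SE 0.14, adjusted p = 0.27). In CT they were 178, 220 and 252 against 148, 187 and 159 (0.38, SE 0.16, adjusted p = 0.858). The other apolipoprotein, Clu, had values of 113, 166 and 181 against 109, 126 and 104 in CA (0.41, adjusted p = 0.515), and differences of 0.31 (DG), 0.12 (FCT) and 0.14 (CT).

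App had values of 616, 595 and 522 in CA of FLT-SAL and of 426, 446 and 412 in GC-SAL (0.43, SE 0.13, adjusted p = 0.264). In DG they were 312, 364 and 326 against 294, 300 and 241 (0.27, adjusted p = 0.594). The groups were disjoint in these hippocampal regions and overlapped in cortex, and in CT the GC-SAL mice held both the smallest (421) and the largest (808) value of the 12. Aplp1 had values of 359, 334 and 358 against 222, 298 and 285 in DG (0.39, SE 0.13, adjusted p = 0.235) and of 281, 280 and 295 against 183, 273 and 276 in CA (0.25, adjusted p = 0.814). Again both groups were disjoint in CA and DG only. As ratios to the negative-control probes the Aplp1 groups overlapped in both regions. The ratios were 16.6, 14.9 and 14.6 against 9.47, 15.4 and 14.3 in CA. In DG they were 37.5, 27.2 and 31.4 against 20.2, 27.6 and 21.2. Mapt had values of 75.3, 79 and 83.1 against 50.8, 57.2 and 68.2 in CA (0.43, SE 0.19, adjusted p = 0.641), and differences of 0.04 (DG), 0.10 (FCT) and 0.03 (CT).

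The enzyme genes showed no such separation. Bace1 differed by -0.14 (CA), -0.07 (DG), 0.28 (FCT) and 0.11 (CT), the first pair being the only values below 0 among the 32. Psen2, at 15 to 40 in single AOIs, differed by 0.45 (CA), 0.07 (DG), 0.33 (FCT) and 0.26 (CT), with groups that overlapped in every region. FLT-SAL did not overlap with GC-SAL, and was higher, for 4 of 8 members in CA (App, Aplp1, Mapt and Sncb) and 4 in DG (App, Aplp1, Sncb and Apoe), where 7.55% and 7.39% of all genes did the same. It did so for 1, Sncb, in FCT (7.41% of all genes) and in CT (5.14%). These counts are for Q3-normalized counts, and as ratios to the negative-control probes Aplp1 overlapped in CA and DG and Sncb in CT. 0 members were lower without overlap, where 5.33% (CA), 7.45% (DG), 4.7% (FCT) and 5.23% (CT) of all genes were. The median difference of the 8 genes was 0.43 (CA), 0.29 (DG), 0.28 (FCT) and 0.22 (CT), beside 0.02, -0.01, 0.03 and 0.01 for all genes. The members and all genes are unlike in level. By mean level App, Aplp1, Mapt, Sncb, Apoe and Clu lay at percentiles 96.1 to 99.9 of all genes, Bace1 at 75.4 and Psen2 at 37.7. A comparison with genes of like level was not made.

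Averaged over the 4 regions of each mouse, Sncb and Apoe were higher in FLT-SAL than in GC-SAL at an adjusted p below 0.05. The geometric mean of Sncb over the regions was 142, 157 and 156 in the FLT-SAL mice and 101, 116 and 107 in the GC-SAL mice, with no overlap. That was 1.4-fold, a log2 difference of 0.48 (SE 0.10, adjusted p = 0.00483, limma on 12 mice). Apoe had 162, 214 and 213 against 111, 164 and 141, where FLT-SAL mouse 1 lay just below GC-SAL mouse 2. That was 1.42-fold, a log2 difference of 0.50 (SE 0.11, adjusted p = 0.015). Neither exceeded the fold threshold, so 0 of 8 members were called and 2 of 8 had an adjusted p below 0.05, where 0.101% and 0.843% of all genes did. Another 4 members had an unadjusted p below 0.05, a level at which 5.84% of all genes were higher: Aplp1 at 0.31 (adjusted p = 0.237), App at 0.29 (0.297), Psen2 at 0.28 (0.502) and Clu at 0.25 (0.376). Mapt was at 0.15 (95% confidence interval -0.05 to 0.35) and Bace1 at 0.05 (-0.18 to 0.27). All 8 estimates were above 0, as were 53.4% of all genes, and the means of App, Psen2 and Sncb did not overlap, as was the case for 8.59% of all genes.

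Leaving out 1 mouse changed the side of the threshold for both genes. For mouse 2 or 3 of FLT-SAL, or mouse 1 of GC-SAL, the adjusted p of Sncb was 0.0654, 0.0583 and 0.068 and that of Apoe 0.201, 0.188 and 0.315, and for mouse 3 of GC-SAL that of Apoe was 0.053. With mouse 1 of FLT-SAL or mouse 2 of GC-SAL left out Apoe passed the fold threshold (0.64 and 0.63). With CA left out of the mean both had an adjusted p of 0.0503, and with scaling to the negative-control probes they had 0.126 and 0.168. The log2 difference stayed between 0.43 and 0.56 for Sncb and between 0.35 and 0.64 for Apoe over these settings.

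**Figure D3:**
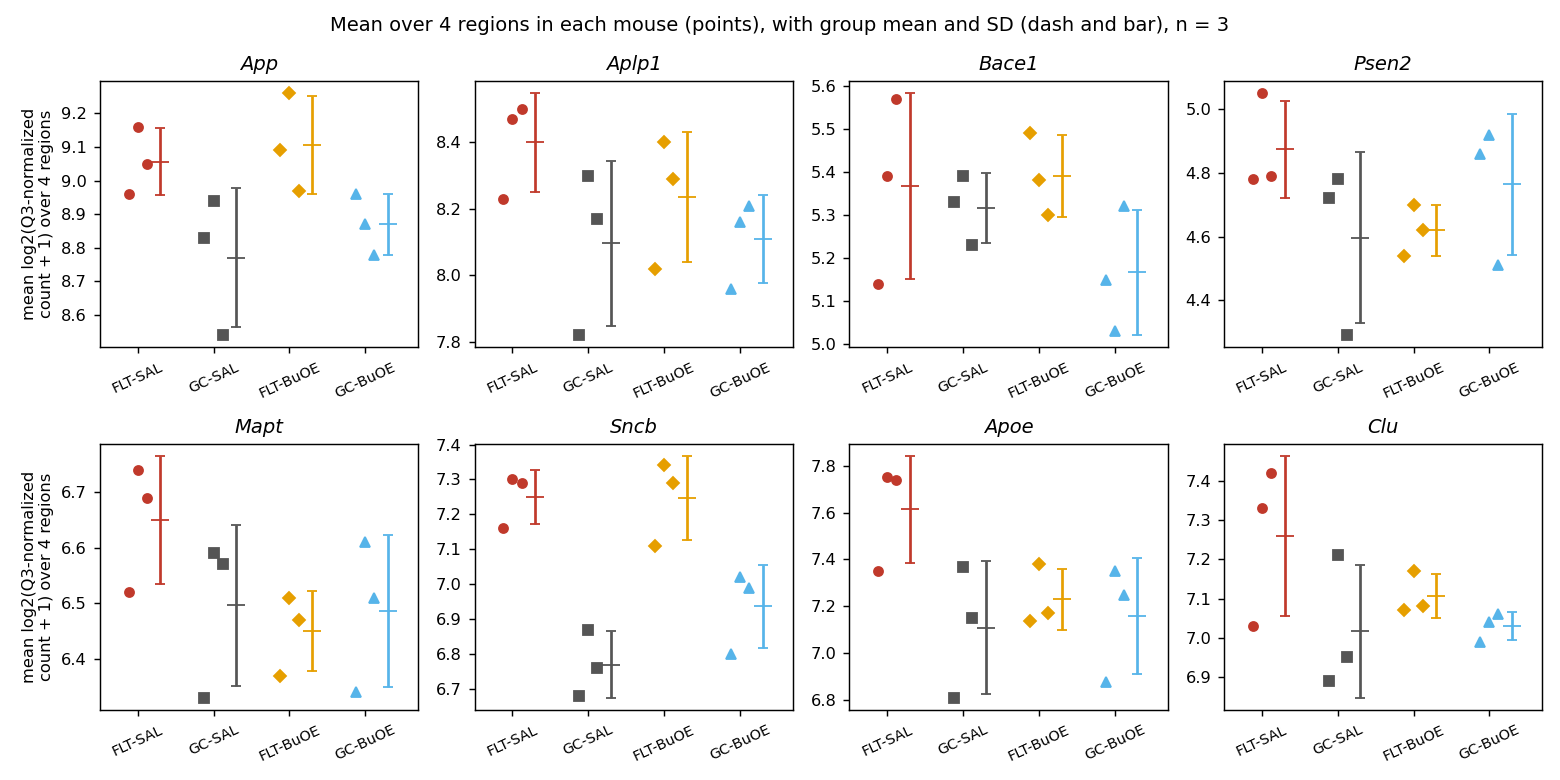
Mean over the 4 regions of log2(Q3-normalized count + 1) for each mouse (points), with the group mean (dash) and SD (bar), n = 3, for the 8 genes; axes do not start at 0. For Sncb the FLT-SAL and FLT-BuOE mice lie above all GC-SAL and GC-BuOE mice, and for Apoe the FLT-SAL mice with means of 214 and 213 lie above the other 10.

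In FLT-SAL a neuron marker list and depth were higher than in GC-SAL, as Sncb and Apoe were. FLT-BuOE AOIs had the lowest median depth of the 4 groups, 548888 counts, and Sncb means over the regions of 137, 161 and 156. All 12 genes of a neuron marker list were measured, and 11 had a difference above 0 on mouse means (median 0.26, 1 with an adjusted p below 0.05). The summed neuron markers in CA ran from 1400 to 1510 in FLT-SAL and from 1090 to 1180 in GC-SAL, and in FCT from 1950 to 2320 against 1780 to 1880. In DG the sums were 1420 to 1640 against 1110 to 1290, and in CT, where they were 2430 to 3220 against 1760 to 3470, they overlapped. Sums of 6 glutamatergic neuron genes overlapped in all 4 regions, and in FCT ran from 715 to 1200 against 885 to 1070. Sums of 7 measured GABAergic interneuron genes were higher without overlap in CA, DG and FCT (302 to 375 against 259 to 298 in FCT) and overlapped in CT. For astrocytes, the main source of Apoe and Clu, 10 of 12 genes were above 0 with a median of 0.04, 0 with an adjusted p below 0.05, and sums in CA of 556 to 697 against 520 to 633. Astrocyte sums were higher without overlap in DG, at 589 to 678 against 536 to 567, and overlapped in CA, FCT and CT. Of 12 oligodendrocyte and myelin genes 11 were measured and 10 were above 0 (median 0.25, 3 with an adjusted p below 0.05), and their sum in CT ran from 1450 to 2000 against 832 to 914. Among 10 measured microglia genes 3 were above 0 (median -0.07). No marker was at 0 in any AOI, but a value above 0 does not show detection, and several markers lay near the negative-control probes. Among the microglia genes, region medians were 1.06 to 1.72 times the negative-control value for Siglech, 1.22 to 1.86 for Trem2 and 1.29 to 1.89 for Tyrobp. Among the astrocyte genes they were 1.2 to 1.77 for Agt. The part of these markers, and of the greater depth of the FLT-SAL AOIs, in the differences of the 8 genes was not tested.

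**Figure D4:**
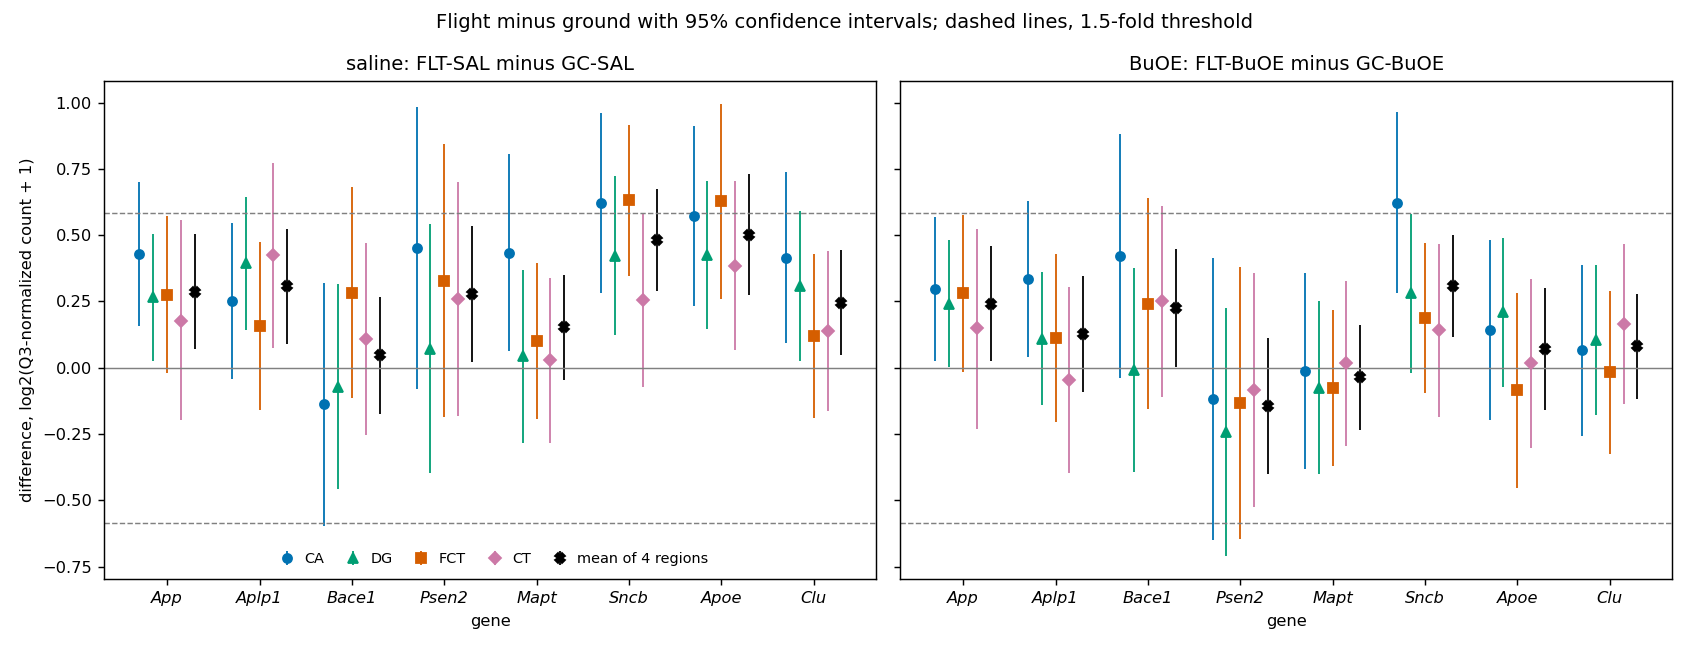
Flight minus ground difference in log2(Q3-normalized count + 1) for the 8 genes in saline mice (left) and BuOE mice (right), by region and for the mean of the 4 regions, with 95% confidence intervals and dashed lines at the 1.5-fold threshold. In saline 30 of 32 region values lie above 0, and in BuOE 21 of 32, with Sncb in CA at 0.62 in both panels. Of all genes 48.7% to 55.8% by region lie above 0 in saline and 42.9% to 49.1% in BuOE.

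Whether the flight effect differed between regions was tested in the 48-AOI fit. For the 8 genes and 6 pairs of regions 0 of 48 differences passed in limma, the lowest adjusted p was 0.929, and 0 had an unadjusted p below 0.05, where 5% (CA minus CT), 5.4% (CA minus DG), 5.39% (CA minus FCT), 3.64% (DG minus CT), 4.38% (DG minus FCT) and 2.88% (FCT minus CT) of all genes did. Of all genes 0.0127% passed for CA minus CT, DG minus CT and DG minus FCT, 0.00634% for FCT minus CT, and 0% for CA minus DG and CA minus FCT. No difference of the flight effect between regions was shown for these genes.

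BuOE in flight, FLT-BuOE against FLT-SAL, gave 9 of 32 estimates above 0, from -0.73 to 0.28, and no member passed the test. Of all genes 41.9% (CA), 46% (DG), 38.7% (FCT) and 47% (CT) were above 0, so the whole tables leaned the same way. Apoe had geometric means over the regions of 140, 166 and 143 in FLT-BuOE against 162, 214 and 213 in FLT-SAL, a log2 difference of -0.38 (SE 0.11, adjusted p = 0.201). Its region differences were -0.33 (CA), -0.46 (DG), -0.39 (FCT) and -0.34 (CT), and in DG the FLT-BuOE values of 132, 134 and 157 were all below the FLT-SAL values of 168, 202 and 213 (adjusted p = 0.395). Sncb had means of 137, 161 and 156 against 142, 157 and 156, a difference of -0.01 with a 95% confidence interval of -0.20 to 0.19. A fall of Sncb as large as its 0.48 difference between FLT-SAL and GC-SAL lay outside that interval.

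Mapt and Psen2 were lower without overlap in some regions. Mapt had 51.1, 60.8 and 74.8 in CA of FLT-BuOE against 75.3, 79 and 83.1 (-0.36, SE 0.19), and 100, 103 and 110 against 114, 125 and 142 in FCT (-0.27, adjusted p = 0.689), but as ratios to the negative-control probes the Mapt values in FCT were 8.3, 7.97 and 8.54 against 6.33, 8.07 and 9.31, which overlap, and the difference changed sign under that scaling. Psen2 had 15.7, 20.5 and 17.5 against 29.7, 32.9 and 28.3 in FCT, which with -0.73 (SE 0.26, adjusted p = 0.435) was the widest gap of the comparison, at levels close to the negative-control probes. Members lower without overlap in Q3-normalized counts numbered 2 in CA (Psen2 and Mapt; 7.45% of all genes), 1 in DG (Apoe; 6.75%), 2 in FCT (Psen2 and Mapt; 8.82%) and 2 on mouse means (Psen2 and Mapt; 9.76%). As ratios to the negative-control probes Psen2 in CA was at 1.54, 1.28 and 1.2 in FLT-BuOE against 1.67, 2.13 and 1.45 in FLT-SAL, which overlap. In limma 0 members were called in any region, with a share of all genes of 0.00634% for CA, 0% for DG, 0.0317% for FCT and 0.0697% for CT, and 0 on mouse means (0.0317%). There were 6 of 32 values with an unadjusted p below 0.05, all lower in FLT-BuOE, while 4.96% (CA), 6.2% (DG), 7.65% (FCT) and 5.73% (CT) of all genes passed that level in either direction. edgeR and DESeq2 also called 0.

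On the ground no member passed the test for BuOE. GC-BuOE against GC-SAL gave 19 of 32 estimates above 0, from -0.28 to 0.49, with a lowest adjusted p of 0.766. Of all genes 48.7% (CA), 46.9% (DG), 51.6% (FCT) and 49.3% (CT) were above 0. limma, edgeR and DESeq2 called 0 members, and limma called 0% of all genes in CA, DG and CT and 0.00634% in FCT. An unadjusted p below 0.05 was found for 3 of 32 values and for 5.6% (CA), 5.21% (DG), 5.63% (FCT) and 3.78% (CT) of all genes. Sncb was the member with separate groups: in FCT it had 164, 182 and 178 in GC-BuOE against 134, 131 and 137 (0.38, adjusted p = 0.766), and in DG 87.8, 113 and 106 against 71.8, 80 and 85 (0.36, adjusted p = 0.897). Such separation upward was found for 5.94% of all genes in FCT and 4.09% in DG. On mouse means 0 members had an unadjusted p below 0.05 (4.41% of all genes), and Sncb was at 0.17 (95% confidence interval -0.02 to 0.36).

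Among BuOE mice, FLT-BuOE against GC-BuOE, the largest of the 32 estimates was that of Sncb in CA. Its values there were 113, 110 and 95.7 in FLT-BuOE and 73.7, 69.4 and 62.7 in GC-BuOE, a difference of 0.62 (SE 0.17, adjusted p = 0.213) with no overlap. On mouse means it was at 0.31 (SE 0.10, adjusted p = 0.222), with 137, 161 and 156 all above 110, 129 and 126. App, the amyloid precursor, had 509, 546 and 470 against 440, 459 and 347 in CA (0.30, adjusted p = 0.643), and 0.24 on mouse means (adjusted p = 0.48). Apoe differed by 0.07 on mouse means (95% confidence interval -0.16 to 0.30). Members higher without overlap numbered 4 in CA (App, Aplp1, Bace1 and Sncb; 5.09% of all genes), 1 in FCT (Sncb; 3.71%) and 3 on mouse means (App, Sncb and Clu; 5.2%). limma, edgeR and DESeq2 called 0 members within regions, while limma called 0.0444% (CA), 0.108% (DG), 0.019% (FCT) and 0.0127% (CT) of all genes. An unadjusted p below 0.05 was found for 4 of 32 values and for 7.52% (CA), 8.24% (DG), 7.17% (FCT) and 6.65% (CT) of all genes. On mouse means 0 members and 0.0887% of all genes were called.

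The difference between both flight effects was tested as the interaction. On mouse means it was -0.43 for Apoe (SE 0.16, adjusted p = 0.664), -0.42 for Psen2 (SE 0.18, adjusted p = 0.722) and -0.18 for Sncb (SE 0.14, adjusted p = 0.904). The 95% confidence interval was -0.76 to -0.11 for Apoe and -0.45 to 0.10 for Sncb. Within regions 7 of 32 values were above 0, as were 44.9% (CA), 49.5% (DG), 40.2% (FCT) and 48.4% (CT) of all genes. An unadjusted p below 0.05 was found for 2 (Apoe in FCT at -0.71 and Sncb in FCT at -0.44), where 5.39% (CA), 6.39% (DG), 5.43% (FCT) and 4.81% (CT) of all genes had one, and limma, edgeR and DESeq2 called 0. limma called 0.00634% (CA), 0% (DG), 0.00634% (FCT) and 0.019% (CT) of all genes, and 0% on mouse means. No difference of the flight effect with BuOE from that with saline was thus shown for any member.

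The members were set among 93 genes of 10 lists on amyloid processing, tau, synucleins and lipid transport, of which 89 were measured. These lists too were chosen with earlier results of these data known, so their counts beside all genes are descriptions only. In FLT-SAL against GC-SAL 61 of the 89 were above 0 on mouse means, as were 53.4% of all genes, with a median of 0.07 beside 0.01 for all genes. An adjusted p below 0.05 was found for 7 of the 89, all higher in FLT-SAL, and for 0.843% of all genes in either direction. Apart from Sncb and Apoe these were Apod, Itm2c, Itm2b, Map1a and Ppp2r1a. Apod, an apolipoprotein of glia and myelin-rich tissue, was the only one called on mouse means, at 0.80 (SE 0.13, adjusted p = 7.44e-05). In CT Apod was called at 1.29 (adjusted p = 3.83e-05), beside the oligodendrocyte marker sums given above. Itm2c, of the BRI family of membrane proteins that bind App, was called in CA at 0.80 (adjusted p = 0.0306) and in DG at 0.92 (adjusted p = 0.00229), and its relative Itm2b was at 0.44 on mouse means (adjusted p = 0.0263). Map1a, a microtubule-associated protein of neurons like tau, was at 0.42 (adjusted p = 0.0235). Ppp2r1a, the scaffold subunit of a phosphatase that acts on tau, was at 0.47 (adjusted p = 0.0123).

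By list, 2 of 14 App adaptor, sorting and BRI family genes had an adjusted p below 0.05 on mouse means and 12 of 14 were above 0 (median 0.14). Of 6 measured γ-secretase genes 5 were above 0 (median 0.13) and 0 passed. Of 3 α-secretase genes 1 was above 0, and Adam10, the main α-secretase of neurons, was at -0.01 (95% confidence interval -0.22 to 0.20). Of 10 synuclein and Parkinson genes 8 were above 0 and 1, Sncb, passed. Among 25 genes of apolipoproteins, lipid efflux and receptors 12 were above 0 (median 0.00) and 2 passed, Apoe and Apod. Of 8 microtubule-associated proteins 6 were above 0 and 1 passed, and of 16 tau kinases and phosphatases 10 were above 0 and 1 passed. With BuOE in flight, 1 of the 89 genes was called in a region: Apod fell by 0.96 in CT (adjusted p = 0.0111). In BuOE mice flown against ground, Apod was at 0.56 on mouse means (adjusted p = 0.0207).

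Across the 48 AOIs the genes with the profile most like a member were described by Pearson's r of the log2 values, with no test, since AOIs of a mouse, a region and a slide are shared. Nearest to App were Thy1 (0.916), Phactr1, Cox8a and Sv2b (0.901). Nearest to Sncb were Kif1a (0.918), Rab3a, Syt1, Atp6v0c and Atp6v1b2 (0.908), most of them genes of vesicle transport and release, and nearest to Mapt were Tuba1a (0.869), Eno1, Kif1a, Sparcl1 and Sv2a (0.852). Aplp1 was nearest to Dnm2 (0.785), Ubb, Rsrp1, Sez6l2 and Abca2 (0.742). For Apoe they were Mt1 (0.739), Lrr1, Dnm2, Clu and Cst3 (0.706), and for Clu they were Cox6a1 (0.745), Cox4i1, Kif1b, Gpm6a and Gabarapl1 (0.728). The top r was 0.526 for Bace1, with Urm1, and 0.494 for Psen2, with Snrnp35. Among the members r was 0.782 between Mapt and Sncb, 0.738 between App and Sncb and 0.713 between Apoe and Clu, while Psen2 had r of -0.127 to 0.168 with the other 7.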

How the data were processed

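Sections of 12 mice were profiled with the GeoMx mouse whole transcriptome probes. The authors trimmed, aligned and de-duplicated reads with the GeoMx NGS Pipeline 2.3.4 (per the file headers) and deposited a count for each of 20175 probes in 48 AOIs, together with a table per region of Q3-normalized values, the signal used here. The deposited fold changes and p-values of the authors' own comparisons were not used. Of the Q3 values 99.98% gave whole counts within 0.02, and these counts served for edgeR 4.0.16 and DESeq2 1.42.0. PCR copies were collapsed by molecular identifiers before deposit, and depth was 322629 to 1579380 de-duplicated counts per AOI. Tests used limma 3.58.1 (R 4.3.3, empirical Bayes with a mean-variance trend) on log2(value + 1), a scale that understates changes of low genes, over all 15782 genes with no low-value filter, and Benjamini-Hochberg adjustment in each contrast. Each region was fitted with its 4 groups (12 AOIs). Means over the 4 regions were fitted over 12 mice, and regions were compared in 48 AOIs. A call needed an adjusted p below 0.05 and a difference beyond 1.5-fold; the interaction and the flight effect between regions had no fold threshold. SD and n refer to mice. An exact permutation test of 3 against 3 mice cannot go below 0.1 and was not used. Scripts were tested on simulated data.

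Members and lists were chosen with earlier results of these data known. Named genes were the 8 members, list genes that were called, and the 5 genes most correlated with each member. Itm2b, Map1a, Ppp2r1a and Adam10 were named after their values were seen. A few listed or correlated genes are not reported here. Not in the tables were 4 listed genes (Bace2, Aph1c, Ece2 and Sncg). Coordinates are from GENCODE M21 and promoter windows from RefSeq. The App window was moved 59 bases upstream so that it ends at the annotated start. The alternatives were pseudocounts of 5 and 0.5, a low-value filter (1.5 times the negative control in at least 3 AOIs), scaling by total, TMM or negative control, edgeR, DESeq2, a replicate block, the 2 groups compared alone, and leaving out each mouse. The counts at any fold, the interaction on mouse means, negative-control scaling of mouse means and leaving out a region were added after seeing the data.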

Additional observations from a re-analysis of the deposited data

How the results depend on the processing

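Of 288 values of the 8 genes within regions and on mouse means or between regions, 67 had an unadjusted p below 0.05 and 0 of these changed sign in the 16 to 22 settings each value was run in. Of the other 221, 108 changed sign in at least 1 of theirs, the largest of them 0.32. Within regions, 0 members were called in FLT-SAL against GC-SAL, 1 under DESeq2 and 1 with the replicate block, which was Sncb in FCT (adjusted p = 0.016 and 0.0259), and 0 to 1 with a mouse left out. On mouse means, 0 members were called, 0 to 1 with a mouse left out. The 2 members with an adjusted p below 0.05 became 4 with the replicate block and 4 with the 48 AOIs fitted with the mouse as a random block (App and Aplp1 besides Sncb and Apoe), 0 with negative-control scaling, 0 with CA left out of the mean, and 0 to 2 with a mouse left out. The cause was not tested. The block changed no other call counted here. Over all genes, deviations of same-numbered mice correlated over 0.1 in 1 of 72 pairs (-0.179 to 0.125). For Sncb and Apoe, however, mouse 1 had the lowest mean over the regions in each group. In FLT-BuOE, GC-BuOE, FLT-SAL and GC-SAL it had 137, 110, 142 and 101 for Sncb and 140, 117, 162 and 111 for Apoe. With the replicate block in limma their adjusted p was 1.62e-05 and 1.13e-05. What the number stands for is not given by the labels and was not tested. In the whole tables edgeR called 48, 71, 26 and 37 genes in CA, DG, FCT and CT in FLT-SAL against GC-SAL and DESeq2 33, 41, 15 and 19, where limma called 22, 42, 8 and 14. Negative-control scaling moved the median of all genes by over 0.1, to -0.13 in FCT for FLT-SAL against GC-SAL, to 0.28 in FCT for FLT-BuOE against FLT-SAL and to 0.16 in CA for FLT-BuOE against GC-BuOE. Depth limits Psen2 and Bace1 most, since they lie nearest the negative-control probes.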

Other observations

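Apart from the members, 81 list genes were measured, and 20 of them gave 45 called differences over the 6 pairs of regions. Of these 45, 37 were lower in CA or DG than in FCT or CT, 3 were higher and 5 lay between CA and DG. Of all genes 4.1% were called between CA and DG, 3.28% and 3.98% between CA and the cortical regions FCT and CT, and 4.54% and 5.79% between DG and those regions. At any p, 59.5% and 61.7% of all genes were higher in CA than in FCT and CT, and 46.9% and 49.6% higher in DG. The direction of the called list genes was not compared with that of all called genes. Stmn1, a regulator of tubulin assembly, was lower in CA than in CT by a log2 difference of -2.20 and in DG than in CT by -1.93, the widest gaps of these 45. Aplp2, the third member of the App family, was lower in CA than in FCT by -0.78 and than in CT by -0.92. Map4, a microtubule-associated protein found in many cell types, ran the other way and was higher in CA than in DG by 1.14, in FCT by 0.92 and in CT by 0.78. Lrp1b, a receptor of the LDL receptor family, was higher in DG than in FCT by 0.70 and also differed between CA and DG, with CA lower. Other called genes were Apod, Apba1, Apbb1, Cdk5r2, Gsk3a, Itm2c, Map1b, Map6, Mark1, Pink1, Ppp2r2b, Rtn3, Srebf2, Ttbk1 and Uchl1.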
